A study of Mus musculus with 60 samples.

Results

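Trpm1, S100a13, Ap3b2, Myh13 and AA467197 were followed in mouse embryonic stem cells moved into 2i, the pair of a GSK3 inhibitor (CHIR99021, 3 µM) and a MEK inhibitor (PD0325901, 1 µM) used to bring these cells to the naive ground state. These 5 genes, of 50559 in the count table, were chosen for large rises by 12 h of 2i in the 1A wild-type line, and all 5 passed the filter on low counts that left 15083 genes for testing. Polyadenylated RNA was sequenced from 4 lines at 0, 12, 24, 48 and 96 h of 2i, and each of the 20 groups had 3 biological replicates. The lines were 1A with Eed knocked out, 1A with Ezh2 knocked out, the independently derived wild-type line V19, and wild-type 1A. Both knockouts were made with Cas9 in the 1A background and each is a single line, so a difference between a knockout and its parent is a difference between these lines. All groups grew in medium with serum and LIF on gelatin. The 0 h groups had no inhibitor, and the later groups had both inhibitors, renewed daily.

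In embryonic stem cells, MEK inhibition removes the FGF and ERK signal that primes cells to differentiate, and GSK3 inhibition stabilizes beta-catenin and relieves repression by Tcf7l1. GSK3 and mTORC1 also keep the Mitf and Tfe factors, regulators of lysosome genes, out of the nucleus. Ezh2 carries most of the methyltransferase activity of Polycomb repressive complex 2, which places the repressive trimethyl mark on lysine 27 of histone H3, and Eed is the subunit that the complex cannot work without. The genes followed here have unlike known roles. Trpm1 encodes a cation channel of melanocytes and retinal bipolar cells. S100a13 encodes a calcium-binding protein of the S100 family that takes part in the release of proteins that lack a signal peptide. Ap3b2 encodes the neuronal beta subunit of the adaptor complex AP-3, which sorts cargo into vesicles. Myh13 encodes a sarcomeric myosin heavy chain of the extraocular muscles. AA467197, for which RefSeq lists the synonym Nmes1, encodes a small protein related to the cytochrome c oxidase subunit Ndufa4.

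In the coordinates of the count table (GRCm39), Trpm1 lies on chr7:63803583-63923630 on the plus strand with 11181 bases of exon, and Ap3b2 on chr7:81110147-81143722 on the minus strand with 3912 bases. S100a13 lies on chr3:90421539-90431888 on the plus strand with 918 bases of exon. Myh13 lies on chr11:67217929-67262413 on the plus strand with 5902 bases, and AA467197 on chr2:122479807-122482996 on the plus strand with 640 bases. Trpm1 and Ap3b2 share a chromosome but are 17186517 bases apart.

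RefSeq promoter windows (GRCm38.p6, 250 bases before the start and 50 after it) were found for all 5 genes, with 6 start sites in all. A set of 7 short motifs was searched on both strands. Mitf and Tfe factors are known to bind the E-box CACGTG, which Myc factors share, and the M-box TCATGTG. The others were the AP-1 motif TGACTCA, the motif CTTTGAT of Tcf and Lef factors, the Stat motif TTCNNNGAA, the Esrrb motif TCAAGGTCA and the TATA box in the form TATAAA. The windows of Trpm1, Ap3b2 and AA467197 are shown because these genes had their highest means at different times and each window holds a match, in capitals. The Trpm1 window is that of the upstream start of 2.
Trpm1 promoter, chr7:64153585-64153884 (plus strand): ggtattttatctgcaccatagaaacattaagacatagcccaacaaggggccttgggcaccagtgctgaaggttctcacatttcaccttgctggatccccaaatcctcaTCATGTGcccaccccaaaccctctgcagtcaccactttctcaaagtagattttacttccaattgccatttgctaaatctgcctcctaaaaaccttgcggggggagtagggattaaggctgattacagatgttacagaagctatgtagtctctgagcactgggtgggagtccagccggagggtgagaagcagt
Ap3b2 promoter, chr7:81493876-81494175 (minus strand): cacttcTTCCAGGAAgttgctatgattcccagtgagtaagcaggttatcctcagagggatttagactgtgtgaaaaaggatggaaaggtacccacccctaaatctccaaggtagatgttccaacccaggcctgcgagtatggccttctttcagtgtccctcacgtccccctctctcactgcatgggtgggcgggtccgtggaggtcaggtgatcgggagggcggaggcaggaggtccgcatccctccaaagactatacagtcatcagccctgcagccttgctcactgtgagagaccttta
AA467197 promoter, chr2:122637637-122637936 (plus strand): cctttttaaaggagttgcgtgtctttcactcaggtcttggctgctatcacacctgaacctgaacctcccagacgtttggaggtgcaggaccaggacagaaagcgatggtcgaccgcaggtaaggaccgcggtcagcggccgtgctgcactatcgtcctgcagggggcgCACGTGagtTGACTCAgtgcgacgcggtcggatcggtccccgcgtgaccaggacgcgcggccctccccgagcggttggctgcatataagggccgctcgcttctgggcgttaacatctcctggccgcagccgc
The Trpm1 window holds TCATGTG from base 109, which 3.77% of the 32851 RefSeq promoter windows hold. The other Trpm1 window holds CACGTG from base 22, and that of AA467197 holds CACGTG from base 169 and TGACTCA from base 178, against 7.15% and 5.20% of all windows. The Ap3b2 window holds TTCNNNGAA from base 7 and the Myh13 window from base 28, against 8.30% of all windows. The S100a13 window held none of the 7 motifs, and no member's window held CTTTGAT (3.73% of all windows), TCAAGGTCA (0.423%) or TATAAA (13.6%). The matches describe letters in these windows and show no binding.

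Trpm1 and AA467197 are also hosts of microRNAs in the annotation. Mir211 lies between exons of Trpm1 on the same strand, and Mir147 lies within an exon of AA467197 on the same strand. The mature sequences (RefSeq, GRCm38.p6) are shown with the seed, bases 2 to 8, in capitals, because the precursors ride on the transcripts counted here.
mmu-miR-211-5p: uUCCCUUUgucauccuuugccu
mmu-miR-147-5p: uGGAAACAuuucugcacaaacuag
In the count table Mir211 had 2 reads over all 60 libraries and Mir147 had 0. Libraries of polyadenylated RNA do not measure mature microRNAs, so these counts say nothing of their levels.

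Library totals were 2561169 to 11065948 reads (median 6055990). The targeted genes fitted the labels: Eed was at 15.3 to 28.2 CPM (a gene's share of a library's reads, scaled to the same library size for all with TMM factors) in the 15 Eed knockout libraries, against 246 to 393 CPM in all 15 1A wild-type libraries, and Ezh2 was at 14.5 to 19.9 CPM in Ezh2 knockout against 194 to 278 CPM in 1A wild type. All 8 embryonic stem cell markers were at 1 CPM or more on average in every group. The 5 libraries farthest from their groups were V19 at 48 h replicates 2 and 3, Eed knockout at 12 h replicate 1, and 1A wild type at 48 h replicate 3 and at 24 h replicate 1, with root mean square deviations of 0.297 to 0.425 log2 CPM against a median of 0.206. Leaving out these 5 together ended none of the calls given below. The Eed knockout line carried more RNA of extraembryonic marker genes: the summed level of 12 primitive endoderm markers was 2020 to 5850 CPM in its libraries, against 558 to 942 CPM in 1A wild type, and that of 11 trophoblast markers was 1730 to 5770 CPM against 274 to 783 CPM. The 6 macrophage and other immune markers summed to 11.7 to 157 CPM against 4.55 to 17.3 CPM, and the embryonic stem cell markers to 3160 to 5700 CPM against 5520 to 8320 CPM. Of all these markers Adgre1, of the immune list, was at 0 in every library. Their part in the differences between Eed knockout and the other lines was not tested. In bulk RNA, fewer cells with a transcript and less transcript per cell cannot be told apart.

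The contrast that chose the genes, 12 h against 0 h in 1A wild type, is given as a description. Among 13967 genes with a mean of at least 1 CPM, the fitted log2 fold change ranked Trpm1 at 1 (5.52 ± 0.37, SE), S100a13 at 5 (4.77 ± 0.32), Ap3b2 at 8 (4.38 ± 0.14), Myh13 at 12 (4.05 ± 0.26) and AA467197 at 33 (3.32 ± 0.47). The named genes next in rank were Colgalt2 (rank 2, 4.85), Abcb9 (rank 4, 4.85), Spic (rank 9, 4.28), G0s2 (rank 11, 4.05) and S1pr1 (rank 13, 4.02). Of these neighbours, Spic and S1pr1 averaged 10.8 and 7.12 CPM over all libraries, and the other 3 between 1.18 and 1.62 CPM. In this contrast 20% of tested genes were called higher, and all 5 members were, which their choice fixed.

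**Figure D1:**
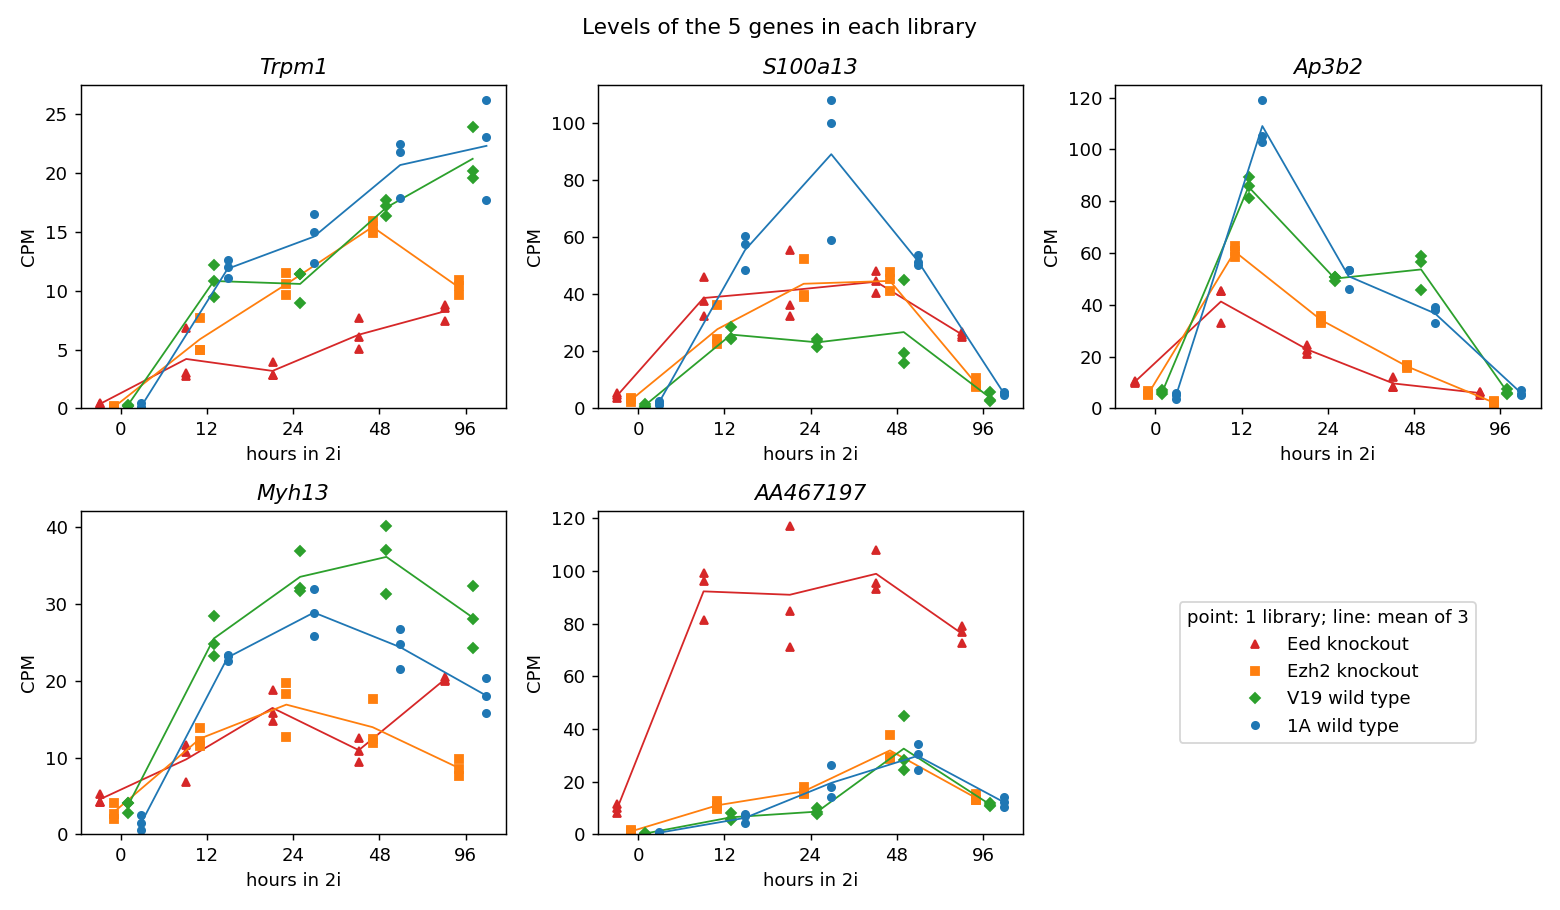
CPM of the 5 genes (vertical axis, from 0) at 0, 12, 24, 48 and 96 h of 2i (horizontal axis, evenly spaced), with 1 point per library, 3 per group, and lines through the group means. Ap3b2 stood highest at 12 h in every line, and Trpm1 stood high at 96 h. AA467197 was far higher in CPM in Eed knockout than in the other lines at every time. On the RUV score that gap was smaller at 0 and 12 h and turned at 24 to 96 h.

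All 5 genes also rose by 12 h in the 3 lines that played no part in their choice (edgeR's quasi-likelihood test, Benjamini-Hochberg adjusted p under 0.05 over 15083 genes, 3 libraries per group). In Eed knockout 5 of 5 were called higher, where 25.2% of tested genes were. In Ezh2 knockout 5 of 5 were called higher, where 26.2% were, and in V19 wild type 5 of 5, where 21.5% were. The median log2 fold change of the 5 genes was 3.06 in Eed knockout, 3.32 in Ezh2 knockout and 4.56 in V19, beside 0.02, 0.05 and 0.04 over all genes tested. In each of these 3 lines all 12 h libraries lay above all 0 h libraries for all 5 genes. This was so for 26.3 to 29.1% of tested genes. Among the 13967 genes with a mean of at least 1 CPM, V19 ranked Trpm1 at 4, AA467197 at 9, S100a13 at 10, Ap3b2 at 22 and Myh13 at 61. Of the genes next to them in the 1A ranking, S1pr1, Spic and G0s2 stood at 12, 35 and 60 in V19. Colgalt2 and Abcb9, which averaged 1.62 and 1.18 CPM over all libraries, stood at 2523 and 12184.

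**Figure D2:**
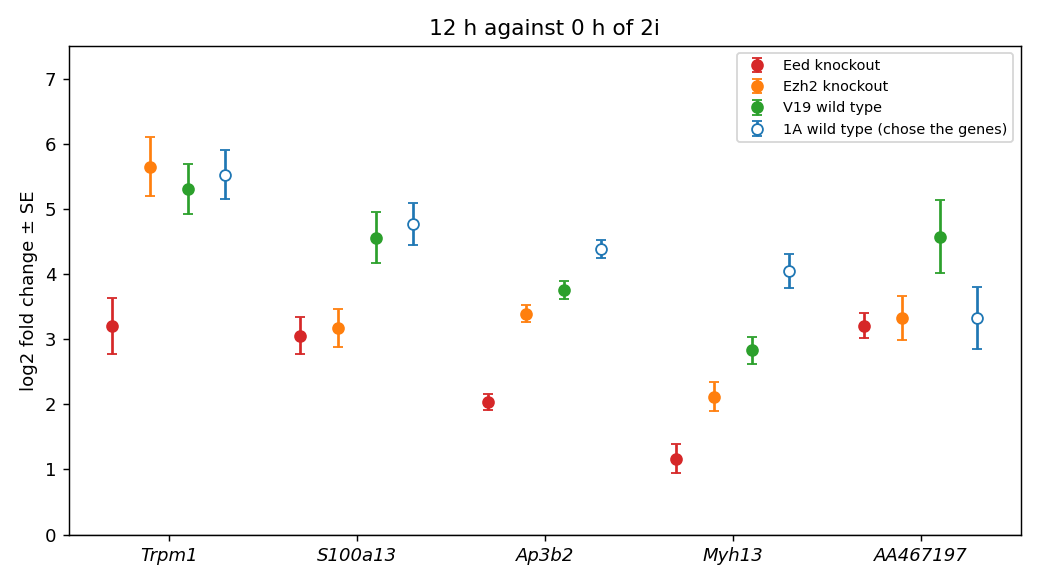
Fitted log2 fold change at 12 h against 0 h of 2i (vertical axis; bars are ± SE, 3 libraries per group) for each gene in the 4 lines. Filled points are lines that did not choose the genes, and open points, 1A wild type, are a description. Eed knockout has the lowest point for each of the 5 genes, but for S100a13 and AA467197 its bar overlaps that of Ezh2 knockout. For AA467197 it also overlaps that of 1A wild type.

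Trpm1 was nearly silent before 2i and was highest at 96 h in both wild types. At 0 h it had 0 to 3 reads in each of the 12 libraries of the 4 lines. In V19 it was at 9.52, 12.2 and 10.8 CPM at 12 h, against 0.325, 0.205 and 0.213 CPM at 0 h (log2 fold change 5.30 ± 0.38, adjusted p = 8.02e-17). In Eed knockout it was at 6.84, 2.80 and 2.99 CPM at 12 h, against 0.472, 0.348 and 0.338 CPM at 0 h (3.20 ± 0.43, adjusted p = 1.71e-08). In Ezh2 knockout it was at 7.72, 5.01 and 4.96 CPM at 12 h, against 0.172, 0 and 0.154 CPM at 0 h. Every 12 h library thus lay above every 0 h library. Since the 3 Ezh2 knockout libraries held only 2 reads at 0 h, the ratio of summed read shares, 62.6 with an exact 95% interval of 17.1 to 521 for counting error alone, is given there in place of the fitted value. For 1A wild type the description was 12.0, 11.1 and 12.6 CPM at 12 h, against 0.444, 0.163 and 0 CPM at 0 h.

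Trpm1 stood higher at 96 h than at 12 h in every line, but did not rise at every step. From 12 h to 24 h its mean went from 10.8 to 10.6 CPM in V19 and from 4.2 to 3.2 CPM in Eed knockout. It went from 5.9 to 10.6 CPM in Ezh2 knockout and from 11.9 to 14.6 CPM in 1A wild type. It averaged 17.1 ± 0.65 CPM at 48 h and 21.2 ± 2.3 CPM at 96 h in V19 (SD, n = 3), and 20.7 ± 2.5 and 22.3 ± 4.3 CPM in 1A wild type. From 12 h to 96 h it rose further in V19 (log2 fold change 0.96 ± 0.16, adjusted p = 2.62e-06), in Eed knockout (1.14 ± 0.22, adjusted p = 2.37e-05) and in Ezh2 knockout (0.79 ± 0.18, adjusted p = 0.000351), and in 1A wild type it was higher at 96 h than at 24 h (0.61 ± 0.15, adjusted p = 0.00124). In Ezh2 knockout the highest mean was at 48 h, with 15.4 ± 0.50 CPM, before 10.3 ± 0.64 CPM at 96 h.

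Trpm1 was lower in the knockouts than in their parent. At 24 h it was at 2.81, 2.81 and 3.96 CPM in Eed knockout, against 15.0, 12.4 and 16.5 CPM in 1A wild type (log2 difference -2.21 ± 0.19, adjusted p = 2.65e-14). At 96 h it was at 8.55, 7.44 and 8.82 CPM in Eed knockout, against 17.7, 23.1 and 26.2 CPM in 1A wild type (-1.42 ± 0.16, adjusted p = 1.65e-10). At 96 h Ezh2 knockout had 10.9, 9.63 and 10.4 CPM, and was also below 1A wild type (-1.10 ± 0.16, adjusted p = 1.06e-06). In each of these comparisons the groups did not overlap. The smaller differences of Ezh2 knockout at 24 h (-0.46 ± 0.17, adjusted p = 0.0312) and 48 h (-0.45 ± 0.16, adjusted p = 0.0223) were lost when any of 4 libraries was left out in each case: replicates 1 and 2 of Ezh2 knockout or 1 and 3 of 1A wild type at 24 h, and replicates 2 and 3 of Ezh2 knockout or 1 and 2 of 1A wild type at 48 h (adjusted p of 0.0572 to 0.151). They were also lost with no filter on low counts (adjusted p = 0.067 and 0.0729).

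S100a13 rose early and then came down, except in Eed knockout, where more of it remained. In V19 it was at 24.5, 24.7 and 28.5 CPM at 12 h, against 0.976, 1.64 and 0.639 CPM at 0 h (log2 fold change 4.56 ± 0.39, adjusted p = 5.21e-14). Ezh2 knockout had 36.2, 22.6 and 24.5 CPM at 12 h, against 2.24, 3.56 and 3.24 CPM at 0 h (3.18 ± 0.29, adjusted p = 3.09e-13). Eed knockout had 45.9, 37.8 and 32.4 CPM at 12 h, against 3.78, 5.40 and 4.56 CPM at 0 h (3.06 ± 0.28, adjusted p = 4.12e-13). All 12 h libraries lay far above the 0 h libraries of their line. The 1A wild-type description was 57.6, 48.5 and 60.4 CPM at 12 h, against 2.52, 1.96 and 1.27 CPM at 0 h, and the highest mean of the 20 groups was that of 1A at 24 h, at 89.1 ± 26.5 CPM, where replicate 1 stood at 58.9 CPM and the others at 108 and 100 CPM.

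By 96 h S100a13 had fallen to 5.57, 4.77 and 5.69 CPM in 1A wild type (log2 fold change against 24 h -4.05 ± 0.26, adjusted p = 2.77e-18). It was at 5.74, 2.47 and 3.10 CPM in V19 (-2.82 ± 0.31 against 12 h, adjusted p = 1.27e-10) and at 10.6, 7.78 and 7.64 CPM in Ezh2 knockout (-1.70 ± 0.24 against 12 h, adjusted p = 1.32e-07). Eed knockout still had 24.9, 26.7 and 25.9 CPM at 96 h, above all 3 libraries of 1A wild type (2.27 ± 0.28, adjusted p = 1.32e-09) and of Ezh2 knockout (1.59 ± 0.25, adjusted p = 4.42e-07). The Eed knockout kept 58.1% of its highest mean at 96 h, against 19.4% in Ezh2 knockout, 14.1% in V19 and 6% in 1A wild type. The V19 peak, at 48 h, rested on replicate 2, with 45.0 CPM beside 19.3 and 16 CPM in the other two. On the authors' RUV-normalized score the difference from 1A wild type at 96 h was 1.04 (limma, adjusted p = 0.00621) and that from Ezh2 knockout was 0.46 (adjusted p = 0.326). Within Eed knockout, 96 h was below 12 h (-0.56 ± 0.21, adjusted p = 0.0244), a call that was lost without replicate 1 or 2 at 12 h or replicate 1 or 3 at 96 h (-0.44 to -0.56, adjusted p of 0.0516 to 0.114). At 24 h the order against 1A wild type was the other way. S100a13 was at 36.2, 32.5 and 55.5 CPM in Eed knockout, below 1A wild type (-1.11 ± 0.19, adjusted p = 1.51e-06). Ezh2 knockout had 39.9, 52.3 and 39.0 CPM, also below 1A wild type (-1.03 ± 0.19, adjusted p = 3.68e-05). The other wild type, V19, had 23.6, 21.7 and 24.3 CPM at 24 h, below all libraries of both knockouts. At 48 h neither knockout passed the test against 1A wild type (-0.22 ± 0.20, adjusted p = 0.357 for Eed and -0.20 ± 0.20, adjusted p = 0.466 for Ezh2).

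Ap3b2 peaked at 12 h in every line and was back at its starting level, or below it, by 96 h. In V19 it was at 89.5, 86.0 and 81.2 CPM at 12 h, against 5.53, 7.17 and 6.39 CPM at 0 h (log2 fold change 3.76 ± 0.13, adjusted p = 6.46e-29). Ezh2 knockout had 62.6, 58.4 and 60.7 CPM at 12 h, against 5.50, 5.09 and 6.78 CPM at 0 h (3.39 ± 0.13, adjusted p = 1.27e-27). Eed knockout had 33.1, 45.3 and 45.4 CPM at 12 h, against 9.76, 10.6 and 10.3 CPM at 0 h (2.04 ± 0.13, adjusted p = 7.33e-19). In 1A wild type the description was 103, 105 and 119 CPM at 12 h, against 5.92, 5.39 and 3.81 CPM at 0 h. In each line the libraries at 12 h lay far above those at 0 h.

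By 96 h Ap3b2 stood at 5.51, 6.08 and 7.41 CPM in V19, overlapping its 0 h libraries (log2 fold change against 0 h 0.02 ± 0.19, adjusted p = 0.942). In Ezh2 knockout it was at 1.82, 2.41 and 2.73 CPM at 96 h, below its 0 h level (-1.28 ± 0.21, adjusted p = 1.69e-06). In Eed knockout it was at 6.22, 5.25 and 6.44 CPM at 96 h, also below its 0 h level (-0.77 ± 0.16, adjusted p = 0.000102). In both knockouts all 96 h libraries were below all 0 h libraries. The fall from 12 h to 96 h was -3.73 ± 0.13 in V19, -4.66 ± 0.15 in Ezh2 knockout and -2.81 ± 0.14 in Eed knockout (adjusted p of 5.09e-28, 1.08e-29 and 5.72e-23), and 1A wild type was -3.09 ± 0.14 at 96 h against 24 h (adjusted p = 4.31e-24). Both knockouts had less Ap3b2 than their parent at 48 h: it was at 8.39, 8.29 and 12.3 CPM in Eed knockout and 16.5, 15.5 and 16.6 CPM in Ezh2 knockout, against 38.0, 39.2 and 32.9 CPM in 1A wild type (-1.97 ± 0.14, adjusted p = 4.89e-18, and -1.20 ± 0.12, adjusted p = 6.77e-11). V19 held 53.7 ± 6.97 CPM at 48 h.

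Myh13 rose by 12 h and was still above its 0 h level at 96 h in Eed knockout, Ezh2 knockout and V19. In V19 it was at 23.3, 28.4 and 24.8 CPM at 12 h, against 2.76, 4.10 and 4.05 CPM at 0 h (log2 fold change 2.83 ± 0.21, adjusted p = 4.01e-16). In Ezh2 knockout it was at 12.1, 11.5 and 13.8 CPM at 12 h, against 2.58, 2.04 and 4.01 CPM at 0 h (2.12 ± 0.22, adjusted p = 2.15e-11). In Eed knockout it was at 6.84, 10.7 and 11.7 CPM at 12 h, against 4.25, 4.18 and 5.23 CPM at 0 h (1.16 ± 0.22, adjusted p = 2.54e-05). The rise was smallest in Eed knockout, where the lowest 12 h library, replicate 1, was only a little above the highest 0 h library. For 1A wild type the description was 23.2, 22.6 and 23.4 CPM at 12 h, against 1.48, 0.490 and 2.54 CPM at 0 h. At 96 h Myh13 remained above 0 h in V19 (28.0, 24.3 and 32.4 CPM; 2.98 ± 0.21, adjusted p = 4.32e-17), in Eed knockout (20.5, 20.1 and 20 CPM; 2.15 ± 0.20, adjusted p = 6.4e-13) and in Ezh2 knockout (9.75, 8.52 and 7.64 CPM; 1.58 ± 0.24, adjusted p = 3.81e-07).

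In 1A wild type Myh13 was lower at 96 h than at 24 h (-0.69 ± 0.16, adjusted p = 0.000427). At 48 h it was at 10.9, 9.40 and 12.5 CPM in Eed knockout, against 24.8, 26.7 and 21.6 CPM in 1A wild type (log2 difference -1.19 ± 0.18, adjusted p = 9.21e-08). At 96 h Eed knockout did not pass the test against 1A wild type (0.16 ± 0.16, adjusted p = 0.399), and 1A wild type had 18.0, 20.4 and 15.8 CPM. Ezh2 knockout was below 1A wild type at 96 h (-1.08 ± 0.18, adjusted p = 2.3e-05) and below Eed knockout, which was higher by 1.24 ± 0.18 (adjusted p = 3.94e-08). Within Ezh2 knockout, 96 h was below 12 h (-0.53 ± 0.18, adjusted p = 0.0159), which was lost without replicate 3 at 12 h or at 96 h (-0.47 and -0.43, adjusted p = 0.0514 and 0.115), while Eed knockout rose on (0.98 ± 0.17, adjusted p = 5.95e-06). Myh13 was also the only member called between the wild types at 96 h, higher in V19 than in 1A (0.65 ± 0.16, adjusted p = 0.00537), where 4.16% of tested genes were higher. Without replicate 3 of V19 at 96 h that difference was 0.53 and no longer passed (adjusted p = 0.0793).

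AA467197 had its highest mean CPM at 48 h in each line, and its CPM was far higher in Eed knockout than in the others. On the authors' RUV-normalized score that gap was smaller at 0 and 12 h and turned at 24 to 96 h. In V19 it was at 5.61, 5.59 and 8.13 CPM at 12 h, against 0.163, 0.410 and 0.213 CPM at 0 h (log2 fold change 4.57 ± 0.56, adjusted p = 1.76e-09). In Ezh2 knockout it was at 12.5, 10.7 and 9.77 CPM at 12 h, against 1.55, 1.27 and 0.463 CPM at 0 h (3.32 ± 0.33, adjusted p = 4.4e-12). In Eed knockout it was at 99.2, 96.1 and 81.4 CPM at 12 h, against 11.5, 8.19 and 9.96 CPM at 0 h (3.21 ± 0.19, adjusted p = 7.99e-20). In CPM the 0 h mean in Eed knockout, 9.88, was thus above the 12 h mean of V19, 6.44. On the RUV-normalized score it was below, at 16.33 against 98.0. The log2 excess of Eed knockout over 1A wild type on that score was 0.94 at 0 h and 0.74 at 12 h. In CPM it was 3.58 and 3.86, and these values are given without a test. As a description, 1A wild type had 6.94, 4.16 and 7.52 CPM at 12 h, against 0.740, 0.653 and 0.254 CPM at 0 h. The 48 h means were 98.9 ± 8.0 CPM in Eed knockout, 31.8 ± 4.9 CPM in Ezh2 knockout, 32.5 ± 11 CPM in V19, where replicate 2 reached 45.0 CPM, and 29.7 ± 4.9 CPM in 1A wild type. In Eed knockout the libraries at 12, 24 and 48 h overlapped, with means of 92.2 ± 9.5, 90.9 ± 24 and 98.9 ± 8.0 CPM, and the RUV-normalized score was highest at 12 h (126.7, against 70 at 48 h), so the time of its peak there was not resolved. The 12 h mean was 93.3% of that peak in Eed knockout, against 34.6% in Ezh2 knockout, 19.8% in V19 and 20.9% in 1A wild type.

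AA467197 was higher in Eed knockout than in Ezh2 knockout before 2i (log2 difference 3.16 ± 0.35, adjusted p = 1.26e-10) and at 96 h, where Eed knockout had 72.5, 79.0 and 76.6 CPM and Ezh2 knockout 15.2, 13 and 13 CPM (2.47 ± 0.18, adjusted p = 3.76e-17). It was higher in Eed knockout than in 1A wild type at 24 h (2.23 ± 0.17, adjusted p = 2.03e-16), 48 h (1.70 ± 0.17, adjusted p = 1.49e-12) and 96 h (2.64 ± 0.19, adjusted p = 1.64e-17). In none of these comparisons did the groups overlap. Ezh2 knockout did not pass the test against 1A wild type at any of these times (log2 differences of -0.24 to 0.17, adjusted p of 0.375 to 0.844). On the authors' RUV-normalized score the direction turned: the log2 difference of Eed knockout from 1A wild type was -1.16 at 24 h, -2.01 at 48 h and -0.77 at 96 h, and that from Ezh2 knockout at 96 h was -0.75. On the same score Eed itself averaged 845 in Eed knockout and 1191 in 1A wild type at 24 h, a log2 difference of -0.49. At 48 and 96 h that difference was -0.195 and -0.182. From the counts Eed was at 15.3 to 28.2 CPM in Eed knockout, against 246 to 393 CPM in 1A wild type. The score thus kept little of the Eed difference between these lines. The marker sums of primitive endoderm and trophoblast given above were also higher in Eed knockout than in 1A wild type. Within Eed knockout the primitive endoderm sum was 3020 to 3520 CPM at 12 h, against 5430 to 5850 CPM at 0 h, while AA467197 rose. The trophoblast sum was 3240 to 3320 CPM at 12 h, against 1730 to 2190 CPM at 0 h. The part of these markers in the difference of AA467197 was not tested. Within 1A wild type, AA467197 was lower at 96 h than at 24 h (-0.66 ± 0.21, adjusted p = 0.0103), which was lost without replicate 3 at 24 h (-0.39, adjusted p = 0.183) or replicate 2 at 96 h (-0.55, adjusted p = 0.0607). In V19 it was higher at 96 h than at 12 h (0.78 ± 0.25, adjusted p = 0.00871).

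Counted together, the members parted after 12 h. At 96 h against 0 h, V19 had 4 of 5 called higher (24.8% of tested genes). Eed knockout had 4 higher (23.3% of genes) and 1 lower (16.4%), and Ezh2 knockout also had 4 higher (22.2%) and 1 lower (20.7%), the gene that fell being Ap3b2 in both. S100a13 in V19 was the weakest of the rises, at 1.74 ± 0.58 (adjusted p = 0.012), and without replicate 1 of V19 at 96 h it was 1.36 and no longer passed (adjusted p = 0.0928). At 96 h against 12 h, V19 had 2 higher (25.4%) and 2 lower (22.8%), Eed knockout 2 higher (29.8%) and 2 lower (21.7%), and Ezh2 knockout 1 higher (21.4%) and 3 lower (18.8%). At 96 h against 24 h, 1A wild type had 1 higher (19%) and 4 lower (18.6%). With 5 genes, counts of 1 or 2 lie near what these shares give.

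**Figure D3:**
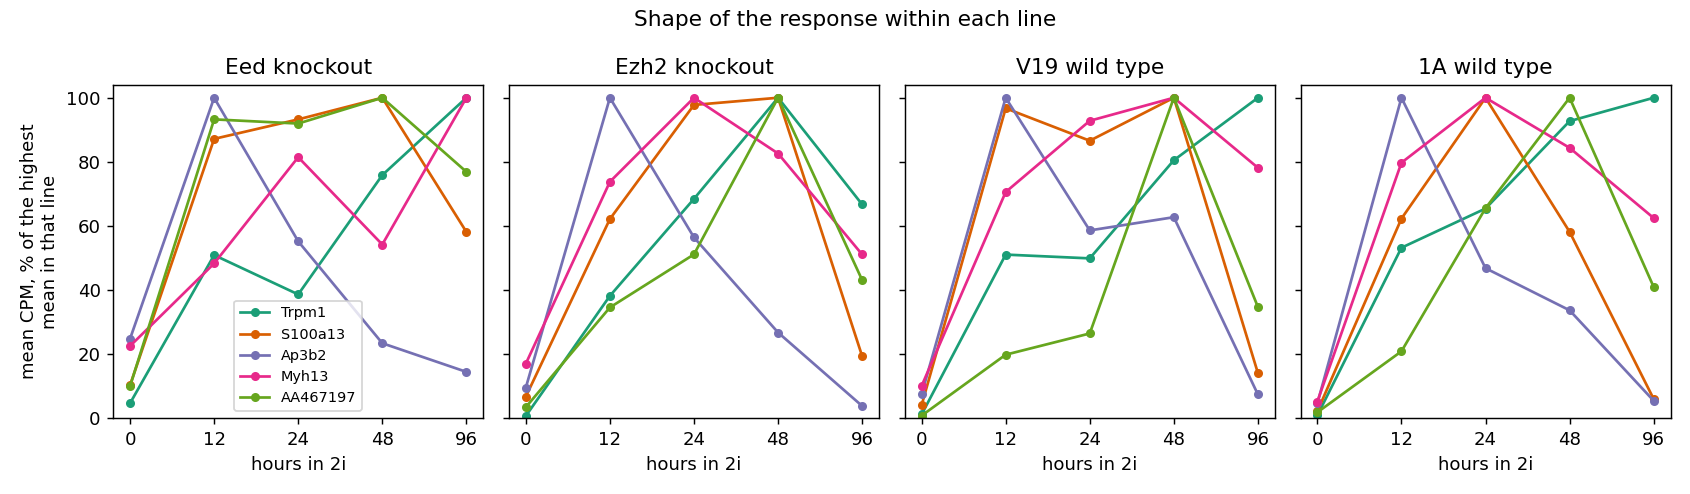
Mean CPM of each gene as a percentage of its highest group mean in the same line (vertical axis) at 0, 12, 24, 48 and 96 h (horizontal axis, evenly spaced), in Eed knockout, Ezh2 knockout, V19 and 1A wild type. Ap3b2 reaches 100% at 12 h in all 4 lines, AA467197 at 48 h in all 4 (in Eed knockout with overlapping libraries at 12, 24 and 48 h, and at 12 h on the RUV score), and Trpm1 at 96 h in all but Ezh2 knockout.

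Against 1A wild type, Eed knockout had 1 member higher (33.6% of tested genes) and 4 lower (29.2%) at 24 h, 1 higher (36.2%) and 3 lower (29.7%) at 48 h, and 2 higher (30.9%) and 1 lower (24.4%) at 96 h. Ezh2 knockout had 4 members lower at 24 h (13.7% of genes), 3 at 48 h (15.2%) and 3 at 96 h (6.65%). Against Ezh2 knockout, Eed knockout had 3 members higher at 0 h (23.6%) and 4 at 96 h (28.1%). The weakest of these, Myh13 at 0 h (0.68 ± 0.28, adjusted p = 0.0428), was lost without replicate 1 or 2 of Ezh2 knockout or any replicate of Eed knockout (adjusted p of 0.0524 to 0.252). At 0 and 12 h the values against 1A wild type rest on the libraries that chose the genes and are given without a test: at 12 h Trpm1, S100a13, Ap3b2 and Myh13 averaged 4.21, 38.7, 41.3 and 9.77 CPM in Eed knockout and 5.90, 27.8, 60.6 and 12.5 CPM in Ezh2 knockout, against 11.9, 55.5, 109 and 23.1 CPM in 1A wild type.

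**Figure D4:**
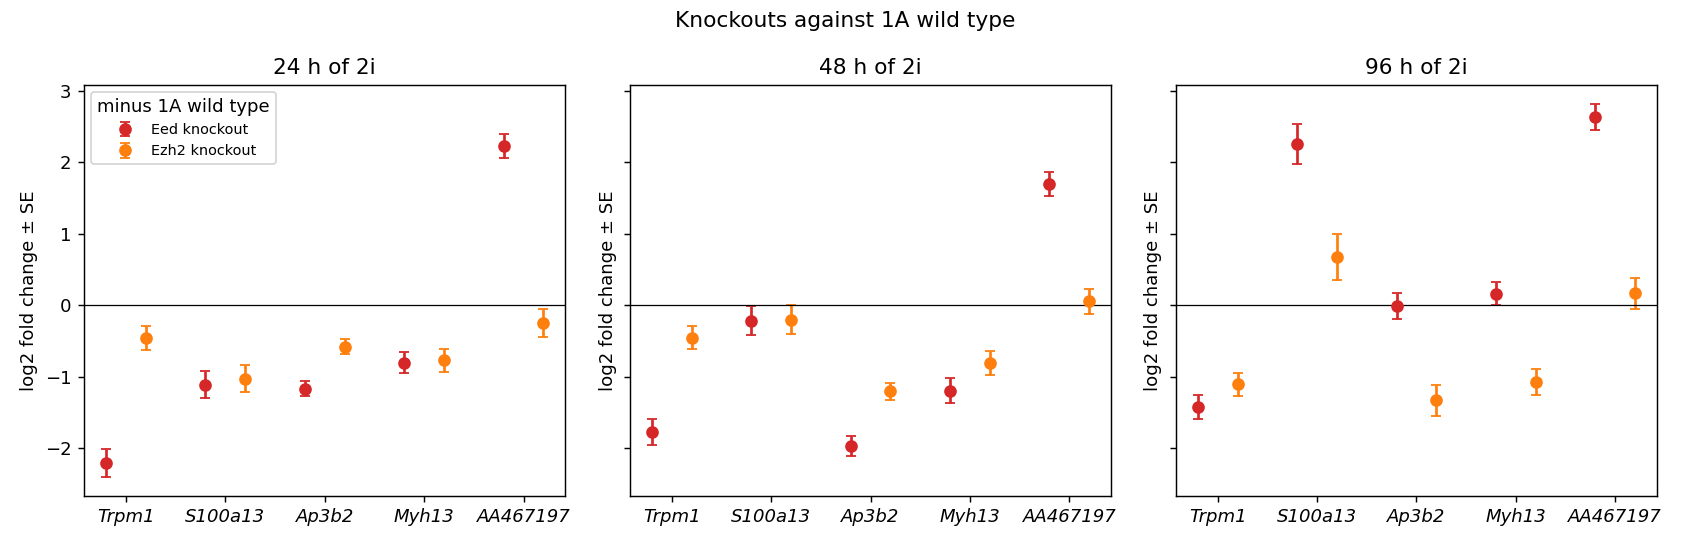
Fitted log2 difference of Eed knockout and Ezh2 knockout from 1A wild type (vertical axis; bars are ± SE, 3 libraries per group) at 24, 48 and 96 h for each gene. AA467197 lies above 0 in Eed knockout at all 3 times (below 0 on the RUV score) and close to 0 in Ezh2 knockout, and Trpm1 lies below 0 in both.

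The difference between lines in the 12 h response itself was tested with interaction terms. The rise of Ap3b2 was smaller in Eed knockout than in V19 by 1.72 ± 0.20 on the log2 scale (difference of responses -1.72, adjusted p = 5.74e-09), and that of Myh13 was smaller too (-1.67 ± 0.33, adjusted p = 0.000321). These were 2 of 5 members lower, where 6.01% of tested genes were lower. Against Ezh2 knockout, Eed knockout had 1 member with a smaller rise, Ap3b2 (-1.35 ± 0.19, adjusted p = 1.18e-06), where 4.96% of genes were lower. Myh13 missed the threshold in this comparison with edgeR (adjusted p = 0.0619) and passed with DESeq2 (-0.94, adjusted p = 0.0394), with no filter on low counts (-0.99, adjusted p = 0.0485) and with a mean of at least 1 CPM (-0.99, adjusted p = 0.0467). Ezh2 knockout against V19 had 0 of 5 members called by edgeR, where 1.22% of genes were called in either direction. At an unadjusted p under 0.05 there were 2 members, S100a13 and Myh13, and DESeq2 called 0. For Ap3b2 and Myh13 the 0 h means were higher and the 12 h means lower in Eed knockout than in V19. The difference of S100a13 between Eed knockout and V19, -1.50 ± 0.60, did not pass (adjusted p = 0.101) but did with DESeq2 (-1.49, adjusted p = 0.0326) and with no filter on low counts (-1.54, adjusted p = 0.00226), among others. For Trpm1 the same difference was -2.10 ± 0.86 (adjusted p = 0.111), with few reads at 0 h to measure it from. On the authors' RUV-normalized score it passed (-1.88, limma, adjusted p = 0.00141), as did the difference of Trpm1 between Eed knockout and Ezh2 knockout (-1.59, adjusted p = 0.011) and that of S100a13 between Eed knockout and V19 (-1.45, adjusted p = 0.0155).

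The authors' RUV-normalized score gave other sizes for some members. On it S100a13 was lower in Eed knockout than in 1A wild type at 24 h by a log2 difference of -2.32, against -1.11 from the counts, and at 48 h it passed (-1.62, adjusted p = 2.76e-05, limma). Ap3b2 at 24 h was -0.66 against -1.16 from the counts. The rise of AA467197 at 12 h was 3.82 in V19, against 4.57, and its 96 h rise in Eed knockout was 2.09, against 2.94. The score also gained calls for AA467197 in Eed knockout at 96 h against 12 h (-0.80, adjusted p = 0.0217) and for Trpm1 in Eed knockout against Ezh2 knockout at 0 h (1.44, adjusted p = 0.000362). Calls that the score did not keep were, besides those above, Trpm1 and AA467197 at 96 h against 24 h in 1A wild type, AA467197 at 96 h against 12 h in V19, Myh13 at 96 h against 12 h in Ezh2 knockout, Myh13 at 24 h in Eed knockout against its parent, Trpm1 at 24 and 48 h in Ezh2 knockout against its parent, Myh13 in V19 against 1A at 96 h, and AA467197 in Eed knockout against Ezh2 knockout at 0 h (adjusted p of 0.058 to 0.481).

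Per kilobase of exon, which allows levels to be compared between genes, the order of the members changed with the line. At 12 h in V19 S100a13 was at 28.2 ± 2.4 CPM per kb (SD, n = 3), Ap3b2 at 21.9 ± 1.1, AA467197 at 10.1 ± 2.3, Myh13 at 4.32 ± 0.45 and Trpm1 at 0.969 ± 0.12. At 12 h in Eed knockout AA467197 led with 144 ± 15 CPM per kb, ahead of S100a13 at 42.2 ± 7.4 and Ap3b2 at 10.6 ± 1.8. Trpm1 had the lowest level per kilobase of the 5 genes in both. Over the 20 groups the highest mean of Trpm1 was in 1A wild type at 96 h, of S100a13 in 1A at 24 h, of Ap3b2 in 1A at 12 h, of Myh13 in V19 at 48 h and of AA467197 in Eed knockout at 48 h. On the RUV-normalized score the highest mean of AA467197 was instead in V19 at 48 h (390.7, and 70 in Eed knockout at 48 h). When the 20 groups were ordered by mean, 11 of the 19 neighbouring pairs had overlapping values for Ap3b2, 14 for Trpm1, 15 for S100a13 and 16 each for Myh13 and AA467197.

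The members' patterns over the 20 groups were alike only in part. The Pearson correlation of mean log2 CPM was highest between Trpm1 and Myh13 (r = 0.902 over 20 groups) and lowest between Ap3b2 and AA467197 (r = 0.233). The groups share lines and times, so these values are descriptions. Among named genes with a mean of at least 1 CPM, those most like Trpm1 were Sdc2, a heparan sulfate proteoglycan (r = 0.948), Cdo1, cysteine dioxygenase (0.945), and Srrm4os (0.945). Those most like S100a13 were S100a1 (0.928), Sec22a, a vesicle transport protein (0.928), and Hexa, a lysosomal hexosaminidase subunit (0.921). Those most like Ap3b2 were Ttc12 (0.924), the mitochondrial fission factor Mff (0.916) and the cilia gene Cfap45 (0.911). Those most like Myh13 were Renbp (0.920), Vat1 (0.916) and Trpm1 itself (0.902). AA467197 had the closest matches, the ATP-gated channel P2rx4 (0.984), Creg1, a secreted glycoprotein (0.973), and the tetraspanin Cd9 (0.973).

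The nearest genes along the chromosome were read beside each member. Ap3b2 lies 2398 bases from Cpeb1, which encodes an RNA-binding protein that controls translation. Cpeb1, like Ap3b2, had its highest mean at 12 h in every line, but the order of the lines differed later. Cpeb1 was at 17.7, 16.4 and 13.2 CPM in V19 at 12 h, against 2.93, 4.71 and 2.77 CPM at 0 h (log2 fold change 2.18 ± 0.19, adjusted p = 1.09e-13), and was down to 1.84, 3.99 and 2.93 CPM at 96 h. It also rose by 12 h in Eed knockout (1.13 ± 0.15, adjusted p = 1.15e-08) and in Ezh2 knockout (2.30 ± 0.18, adjusted p = 2.29e-15), and its rise too was smaller in Eed knockout than in V19 (difference of responses -1.05 ± 0.25, adjusted p = 0.00328). At 48 h Cpeb1 averaged 12.8 CPM in Eed knockout against 4.67 CPM in 1A wild type, where Ap3b2 averaged 9.66 against 36.7 CPM. In Eed knockout at 96 h Cpeb1 did not pass against 0 h (-0.15 ± 0.16, adjusted p = 0.489), while Ap3b2 was lower. On the other side, BC048679, 300 bases from Ap3b2, averaged 1.32 ± 0.12 CPM at 12 h in V19 against 0.302 ± 0.16 CPM at 0 h (1.99 ± 0.63, adjusted p = 0.00906). In Eed knockout BC048679 was at 2.56, 2.21 and 1.95 CPM at 12 h and had no read at 0 h. Its fitted response was larger there than in V19 (adjusted p = 0.0393), unlike those of Ap3b2 and Cpeb1. That difference rests on the absence of reads at 0 h, against 0.488, 0.205 and 0.213 CPM in V19, so its size is poorly measured. S100a1, which overlaps S100a13, also rose and is described next. Of the other neighbours, Klf13 beside Trpm1 was lower at 12 h in V19 (-0.26 ± 0.10, adjusted p = 0.0243), and Mtmr10, Chtop, S100a14, Myh3, Gas7, Spata5l1 and Slc30a4 did not pass, with log2 fold changes of -0.54 to 0.20.

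S100a13 shares its first bases with another gene. The first exon of S100a13 overlaps S100a1, a gene for another calcium-binding S100 protein on the opposite strand, over 99 bases. The strand setting of the counting is not given in the sources used here, so reads of these bases cannot be told apart between the genes. S100a1 was at 3.74, 2.54 and 4.91 CPM in V19 at 12 h, against 1.14, 0.205 and 0.639 CPM at 0 h (2.41 ± 0.45, adjusted p = 1.79e-05). It rose by 12 h in Eed knockout (2.41 ± 0.33, adjusted p = 4.15e-08) and in Ezh2 knockout (2.26 ± 0.38, adjusted p = 1.58e-06) as well. At 96 h it was at 11, 14 and 11.2 CPM in Eed knockout, against 2.48, 1.85 and 2.84 CPM in Ezh2 knockout, the same order of these lines as for S100a13.

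**Figure D5:**
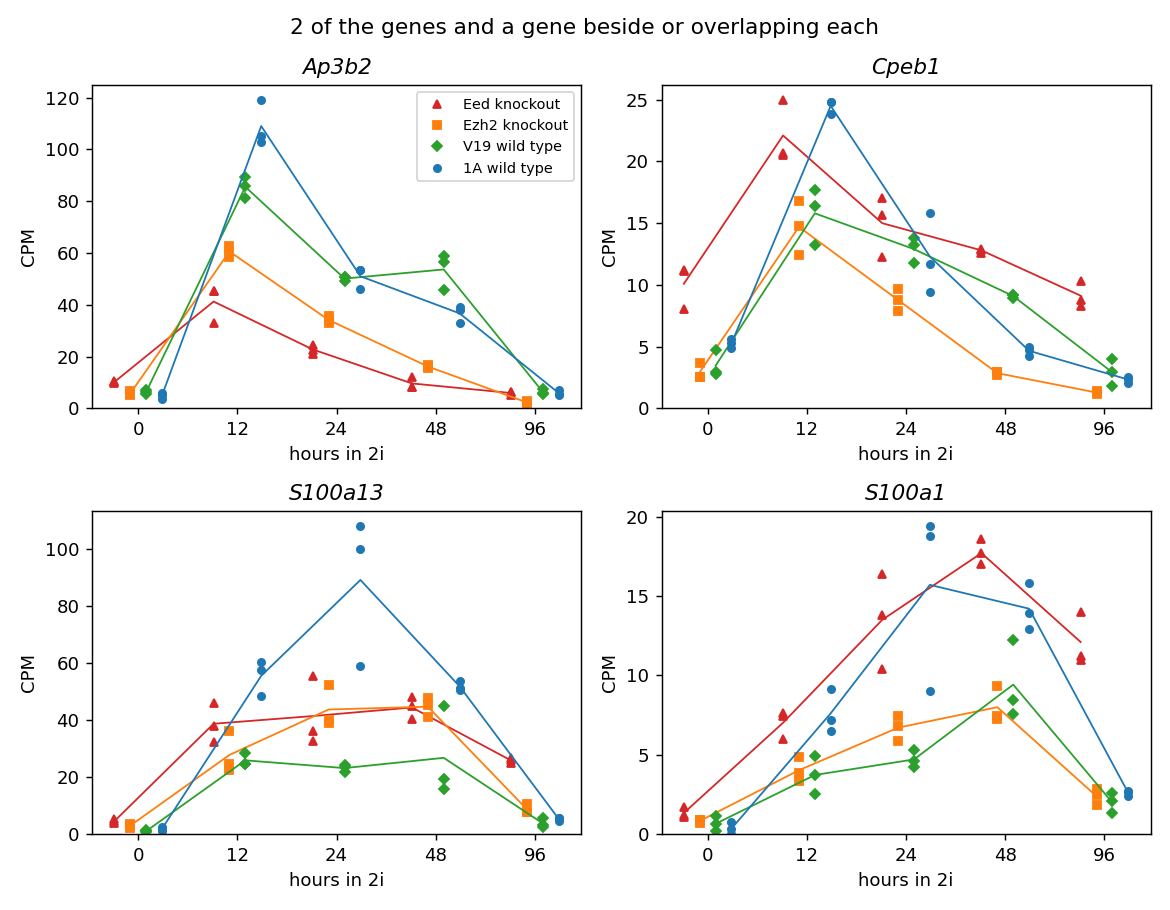
CPM per library (vertical axis, from 0) at 0, 12, 24, 48 and 96 h of 2i (horizontal axis, evenly spaced) for Ap3b2 and its neighbour Cpeb1, and for S100a13 and the overlapping gene S100a1, with lines through group means of 3. Cpeb1 is highest at 12 h in all 4 lines, as Ap3b2 is, and S100a1 is highest at 24 or 48 h.

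Other genes of the members' families were read at the same times. Counts are of tested genes other than the members, called at 12 h against 0 h in V19, where 21.5% of all genes were higher and 20.8% lower. Of 14 TRP channel genes 3 were higher, among them Trpm4, a calcium-activated cation channel (0.64 ± 0.17, adjusted p = 0.00192), and the lysosomal channel Mcoln1 (0.35 ± 0.10, adjusted p = 0.00473). In 1A wild type 2 were higher. Of 8 listed S100 genes (S100pbp included, though outside the family) 3 were higher in V19 and 1 in 1A wild type, with 1 lower. In V19 these were S100a1, described above, S100a16 (0.78 ± 0.27, adjusted p = 0.0143) and S100g, which averaged 0.497 CPM at 12 h and had no read at 0 h (adjusted p = 0.0448). Of 6 other AP-3 subunits 2 were higher in V19, Ap3b1 (0.47 ± 0.12, adjusted p = 0.000892) and Ap3m2 (0.97 ± 0.17, adjusted p = 7.75e-06), and Ap3s2 was lower (-0.41 ± 0.08, adjusted p = 5.07e-05). Ap3b1 encodes the ubiquitous beta subunit and was at 116.6 ± 2.5 CPM at 12 h in V19, against 83.95 ± 1.4 CPM at 0 h. Of 4 other sarcomeric myosin heavy chains none was higher and Myh6, a cardiac form, was lower (-1.13 ± 0.19, adjusted p = 3.08e-06). Of 15 genes of the Ndufa4 family and the cytochrome c oxidase subunits 11 were higher in Eed knockout (25.2% of all genes), 9 in Ezh2 knockout (26.2%), 6 in V19 and 7 in 1A wild type (20%), and none was lower in any line. Their median log2 fold change was 0.63 in Eed knockout, 0.48 in Ezh2 knockout, 0.41 in V19 and 0.55 in 1A wild type, beside 0.02 to 0.05 over all genes. In V19 Cox6c, a subunit of the enzyme, was higher by 0.65 ± 0.17 (adjusted p = 0.00124). Ndufa4 itself did not pass (0.36 ± 0.20, adjusted p = 0.137).

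Lysosome genes were called higher in larger numbers. Of 33 tested, 27 were higher and 1 lower in V19, and 27 were higher in 1A wild type, with medians of 0.78 and 0.83 beside 0.04 and 0.02 over all genes. The proteases Ctsl (1.46 ± 0.09, adjusted p = 4.94e-20) and Ctsb (1.37 ± 0.06, adjusted p = 3.86e-24) and the galactosidase Glb1 (1.40 ± 0.08, adjusted p = 1.07e-20) had the smallest adjusted p in V19. In Eed knockout 22 were higher, with a median of 0.40, and in Ezh2 knockout 24, with a median of 0.56. Of the 4 Mitf and Tfe factors, Mitf was at 10.6 ± 1.5 CPM at 12 h in V19, against 3.41 ± 1.4 CPM at 0 h (1.64 ± 0.23, adjusted p = 3.72e-08). Tfe3 was at 66.5 ± 4.7 CPM at 12 h, against 182.1 ± 12 CPM at 0 h (-1.46 ± 0.09, adjusted p = 8.34e-20), so the transcripts of these related factors moved in opposite directions. Tfec had no read in V19 at 12 h and averaged 1.10 ± 0.50 CPM at 0 h (adjusted p = 0.000227).

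Markers of the cell types in which Trpm1, Myh13 and Ap3b2 are known to act were read in the same libraries. Over all 60 libraries the pigment cell genes Tyr, Tyrp1, Dct and Oca2 had 6, 2, 4 and 1 reads in total, and the muscle factors Myod1, Myog, Myf5 and Myf6 had 18, 25, 5 and 1. The sum of 11 pigment cell markers was 17.1 to 21.0 CPM in V19 at 12 h, against 10.2 to 13.3 CPM at 0 h, and most of it was Pmel (13.8 against 8.53 CPM). Of the 3 pigment cell markers tested, 2 were called higher and 0 lower. Rab38 averaged 4.22 CPM at 12 h, against 1.5 CPM at 0 h, and Mlana 0.402 against 0.974 CPM. By 96 h in V19 the sum was 31.6 to 37.1 CPM, with Rab38 at 19.2 CPM. The sum of 12 muscle markers was 61.4 to 62.6 CPM at 12 h, against 50.8 to 53.8 CPM at 0 h. Actn3 was at 38.8 against 25.8 CPM, and Des at 15.4 against 20.4 CPM. Of the 6 muscle markers tested, 1 was called higher and 1 lower. The sum of 12 neuronal markers was 962 to 1060 CPM at 12 h in V19, against 570 to 608 CPM at 0 h, mostly Stmn2 (564 against 340 CPM) and Tubb3 (278 against 133 CPM). Of the 9 neuronal markers tested, 4 were called higher and 2 lower, and Elavl3, Syn1 and Rbfox3 averaged 9.03, 5.53 and 0.95 CPM at 12 h, against 14.3, 9.64 and 1.97 CPM at 0 h. Snap25 and Syt1, which mature neurons express, were at 0.581 and 0.469 CPM at 12 h in V19, against 0.315 and 0.171 CPM at 0 h. Gap43 and Nefl were at 36.1 and 106 CPM at 12 h in V19, against 15.6 and 61.9 CPM at 0 h. No marker of these 3 lists was at 0 over all libraries. The part of the pigment cell markers in the rise of Trpm1, and of the neuronal markers in that of Ap3b2, was not tested.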

How the data were processed

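Polyadenylated RNA was measured in 60 libraries, 3 per group in 20 groups, named by the labels. Whole-number counts of reads for each gene were deposited by the authors. The submitters' processing notes name STAR 2.7.10b, featureCounts 2.0.3, MultiQC, DESeq2 and the build GRCm39 (mm39). The strand setting is not given in the sources used here. The authors also deposited a score, whole numbers left after RUV normalization (removal of unwanted variation); its settings are not given in the sources used here, and it was used only as an alternative. A table of transformed counts was not used here.

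Genes passing filterByExpr (minimum count 10, minimum total 15) were tested with edgeR 4.0.16 (R 4.3.3): TMM factors, 1 quasi-likelihood model of 20 groups with 40 residual degrees of freedom, and Benjamini-Hochberg adjustment over all 15083 genes. A call is an adjusted p under 0.05. In all, 22 comparisons were tested. Levels are CPM with TMM factors, except that marker sums use library totals. Log2 CPM has a prior count of 2. Library totals, 2561169 to 11065948 reads, limit the precision of low genes; intervals cover counting error only.

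Comparisons that include the 1A wild type 0 h or 12 h libraries chose the genes or share libraries with that choice, and are given without a test for the members. The members, gene lists and markers were chosen with earlier results of these data known. Named genes are the members, the 3 genes most like each, the nearest tested gene on each side, up to 3 called genes per list with the smallest adjusted p in V19, and the 5 genes next in rank in 1A wild type; a few other list or marker genes were named after their values were seen. Same-numbered replicates of different groups are not said to share a day; the check is given with the alternatives. The 60 pairs of libraries within groups were compared, and none was a duplicate (chi-square per degree of freedom of at least 1.13). The steps were tested on simulated data. Alternatives were RLE size factors, 2 other filters, DESeq2 1.42.0, a model with the replicate number as a block, a model of the compared groups by themselves, limma 3.58.1 on log2 of the RUV score plus 1, each library left out, and, chosen after seeing the data, the 5 libraries farthest from their groups left out. Promoters and microRNAs are from RefSeq (GRCm38.p6), whose coordinates are not those of the counts.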

Additional observations from a re-analysis of the deposited data

Results flagged for a closer look

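The 12 h response differed between lines by the test of the difference itself for 2 genes. Ap3b2 rose less in Eed knockout than in V19 wild type (difference of log2 responses -1.72), and over 20 alternatives the value ran from -1.81 to -1.58 (highest adjusted p 6.1e-05). Ap3b2 also rose less in Eed knockout than in Ezh2 knockout (-1.35, with -1.48 to -1.20 over 20 alternatives and a highest adjusted p of 0.00181). Myh13 rose less in Eed knockout than in V19 wild type (-1.67, with -1.81 to -1.48 over 20 alternatives and a highest adjusted p of 0.00386). Groups of 3 libraries were too small for a test of single outlying values.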

How the results depend on the processing

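Of 1630 values for the 110 member results under alternatives, 1541 kept direction and side of the threshold, 37 lost and 19 gained the call, and 33 reversed. The rises by 12 h in Eed knockout, Ezh2 knockout and V19 kept both in all 210 alternatives (log2 1.02 to 6.05, highest adjusted p 0.00208). The replicate block changed none of the 110 calls, and under it 6357 genes were called at 12 h in V19 (reported: 6378). Same-numbered replicates were not taken as pairs: in 0 of 19 comparisons did every pair correlate over 0.1 (-0.182 to 0.479 over 13967 genes). Where calls were lost, the cause was not tested. Low counts limit Trpm1 and AA467197 at 0 h.

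Reversals without the RUV score were of values near 0. Ap3b2 in Eed knockout against its parent at 96 h was 0.0081 with no filter, 0.015 with RLE factors, 0.014 with DESeq2, and -0.10 to 0.16 with 1 library left out. Ap3b2 in V19 at 96 h against 0 h was -0.0069 with RLE, -0.0036 with DESeq2, -0.022 without the libraries farthest from their groups, and -0.12 to 0.11 with 1 library left out. AA467197 in Ezh2 knockout against its parent at 48 h was -0.030 without those farthest libraries and -0.074 to 0.17 with 1 left out, and at 24 h -0.44 to 0.026. With 1 left out, V19 against 1A at 96 h ran -0.22 to 0.061 for Trpm1 and -0.042 to 0.26 for Ap3b2. Response differences at 12 h ran -0.27 to 0.75 for Trpm1 (Ezh2 knockout against V19), and -0.27 to 0.13 for S100a13 and -0.38 to 0.23 for AA467197 (Eed knockout against Ezh2 knockout).

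On the RUV score, Eed knockout against its parent turned for AA467197 (-1.16, -2.01 and -0.77 at 24, 48 and 96 h) and Ap3b2 at 96 h (0.55). Eed knockout against Ezh2 knockout turned for S100a13 at 0 h (-0.36), and for Trpm1 (0.11) and AA467197 (-0.75) at 96 h. AA467197 was -0.33 and -0.025 in Ezh2 knockout against its parent at 48 and 96 h and 0.10 in V19 against 1A at 96 h, and the 12 h response of Trpm1 in Ezh2 knockout against V19 was -0.29. Called genes numbered 1335, 4416 and 3486 for Eed knockout against its parent at 24, 48 and 96 h (reported: 9466, 9948 and 8337), and 1737 and 2715 for Eed knockout against Ezh2 knockout at 0 and 96 h (reported: 6832 and 7863).

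The compared groups by themselves called 2331 genes for Ezh2 knockout against its parent at 24 h (reported: 4415), 2271 for V19 against 1A at 96 h (reported: 1124), and 1049, 655 and 96 for the responses of Eed knockout against V19 (reported: 1589), Eed against Ezh2 knockout (reported: 1361) and Ezh2 knockout against V19 (reported: 184). The last was 96 with no filter, 404 without the farthest libraries, and 108 to 209 with 1 library left out. With 1 left out, Ezh2 knockout against its parent at 96 h called 1189 to 1725 genes (reported: 1992), and V19 against 1A 699 to 905.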
